A study of Mus musculus with 6 samples.

Results

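The 9 genes described here encode enzymes on the route from acetyl-CoA through mevalonate to squalene epoxide: Acat2, Hmgcs1, Mvk, Pmvk, Mvd, Idi1, Fdps, Fdft1 and Sqle. They were 9 of the 38561 genes in the count tables and were found by symbol, with 1 gene ID for each. The set was selected on the same contrast that is described below, the read counts of the libraries labelled Rbm47-IKO against the control libraries, and their higher level in the labelled libraries was known when the set was chosen. Their genotype differences are therefore given as a description, and where calls of the fit across all genes are counted for them, nothing is read from those counts.

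RNA was from scraped small intestinal mucosa of C57BL/6J mice, aged 8 to 12 weeks per the labels. The study names the sequenced tissue as mucosa of the jejunum, where the labels say small intestinal mucosa. Each of the 6 libraries was 1 pool of RNA from 3 mice of both sexes, with 3 pools labelled Rbm47-IKO, an intestine-specific deletion of the RNA-binding protein gene Rbm47, and 3 labelled wild type. The study's methods describe the deletion as floxed Rbm47 alleles with a constitutive Villin-Cre transgene, which is active along the epithelium of the small and large intestine, and the controls as floxed mice without deletion, where the labels say wild type. Polyadenylated RNA was sequenced, and 31560320 to 38951830 reads per pool were assigned to genes. The methods allow for more than 3 mice in a pool. Each pool hid the spread between its mice, so errors here cover the spread between pools only.

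Rbm47 itself was not lower in the libraries labelled Rbm47-IKO. It was at 603, 625 and 620 CPM (read counts scaled to a common library size) in labelled pools 1, 2 and 3, against 460, 450 and 472 CPM in control pools 1, 2 and 3. The gene-level log2 fold change was 0.42 (SE 0.10, edgeR quasi-likelihood test, adjusted p = 0.0751), and it passed the threshold of 0.05, still as higher, with library size scaling alone (edgeR adjusted p = 0.0473) and in DESeq2 (adjusted p = 0.00105). A gene-level count sums all exons, and which exons were deleted was not given in the sources used here, so the pools are called by their label throughout. The pools labelled wild type are called control pools by that label alone. The study reports negligible Rbm47 mRNA, more small intestinal goblet cells by staining and higher Areg mRNA in its Rbm47-IKO mice. Here the 6 goblet cell markers summed to 19972 to 22772 CPM in the labelled pools and 15028 to 17481 CPM in the control pools. Fcgbp made up most of each sum, Muc2, Tff3, Spink4 and Agr2 overlapped between the groups, and edgeR called 0 of the 6. Of these markers 5 were higher and 1 lower in the labelled pools, beside 8105 higher and 8320 lower of 16425 genes tested. These are RNA levels and not cell counts. Areg had a log2 fold change of 1.56. Whether the labels of the groups were exchanged was not tested, and an exchange would turn every direction given here.

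Cholesterol synthesis starts in the cytosol, where acetyl-CoA units are joined to HMG-CoA, which is turned into mevalonate, phosphorylated and decarboxylated to activated isoprenes, and condensed to farnesyl diphosphate and then squalene. Squalene epoxidase adds the oxygen that allows ring closure to lanosterol. The genes are known targets of the transcription factor SREBP2, which leaves the endoplasmic reticulum when sterols are low and is then released by proteases. Enterocytes balance this synthesis against cholesterol from the diet and bile.

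Promoter sequences are shown because sterol-regulated promoters are known to combine a sterol regulatory element (SRE) with CCAAT and GC boxes. RefSeq promoters (GRCm38.p6) were matched for 6 of the 9 members, Acat2, Hmgcs1, Mvk, Pmvk, Mvd and Idi1, with 7 windows in all because Pmvk had 2 RefSeq starts. The first Pmvk window ended at base 89454540, upstream of the first counted Pmvk base at 89459118. The second, from 89459321, lay inside the counted gene. The 250 bases before each start were searched on both strands for the SRE core TCACNCCAC, the CCAAT box CCAAT, the GC box GGGCGG and the E box CACGTG. Capitals mark every match in the 3 windows printed here, on either strand, and no match overlapped another in them. Hmgcs1 is read from chr13:119690101-119690350 on the plus strand, Mvk from chr5:114444019-114444268 on the plus strand and Mvd from chr8:122443423-122443672 on the minus strand.
Hmgcs1: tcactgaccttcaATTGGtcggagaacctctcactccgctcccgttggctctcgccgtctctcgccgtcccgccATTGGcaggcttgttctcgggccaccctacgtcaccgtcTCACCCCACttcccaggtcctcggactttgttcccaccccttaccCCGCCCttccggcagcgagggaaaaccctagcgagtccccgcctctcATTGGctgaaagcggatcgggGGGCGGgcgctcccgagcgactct
Mvk: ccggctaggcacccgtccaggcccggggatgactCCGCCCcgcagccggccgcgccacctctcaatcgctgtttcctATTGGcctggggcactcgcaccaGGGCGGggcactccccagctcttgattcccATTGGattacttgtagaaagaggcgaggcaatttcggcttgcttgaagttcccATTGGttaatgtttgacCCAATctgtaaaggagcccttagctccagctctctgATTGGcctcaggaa
Mvd: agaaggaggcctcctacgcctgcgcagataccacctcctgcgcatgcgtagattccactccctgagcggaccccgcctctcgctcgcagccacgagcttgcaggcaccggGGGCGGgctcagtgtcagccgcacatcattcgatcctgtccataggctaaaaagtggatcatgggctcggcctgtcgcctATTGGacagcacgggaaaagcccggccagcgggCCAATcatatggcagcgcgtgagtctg

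Among these windows the SRE core was matched once, in Hmgcs1, as TCACCCCAC from -137 to -129 relative to the start. That core was present in 1.05% of the 32851 RefSeq windows of this length. CCAAT boxes were matched in 5 of the 7 member windows, with 5 matches in Mvk, 3 in Hmgcs1, 2 each in Mvd and Idi1 and 1 in the first Pmvk window, and were present in 33.8% of all windows. GC boxes were matched in 5 of the 7 member windows and in 32.7% of all windows. No member window held the E box, which was present in 6.02% of all windows. These are matches of letters and not measured binding sites.

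**Figure D1:**
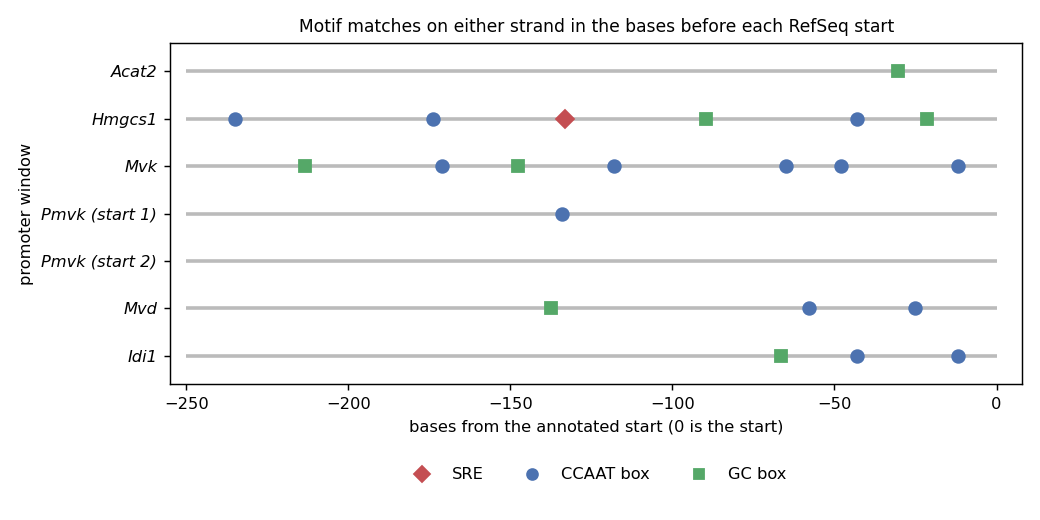
Motif matches in the 250 bases before each RefSeq start of 6 members; the horizontal axis is the distance in bases from the start and each symbol is 1 match on either strand. The SRE core is matched in Hmgcs1 alone among these windows, and Mvk has 5 CCAAT boxes. The second Pmvk window, which lies inside the counted gene, has no match.

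All 9 members were higher in the libraries labelled Rbm47-IKO, and for each of them the lowest labelled pool was above the highest control pool. Over the 9 genes the fitted fold ran from 1.38 for Hmgcs1 to 2.81 for Mvd, and the median log2 fold change was 1.27, beside -0.006 over the 16425 genes tested. Higher pools without overlap were found for 11.7% of all genes tested and lower pools without overlap for 11.6%. By edgeR at an adjusted p of 0.05 or less, 8 of the 9 were called higher and Hmgcs1 was not. Idi1 (edgeR adjusted p = 0.0496), Acat2 (0.0411) and Pmvk (0.0402) lay closest to the threshold among those called. Of all genes tested 1.45% were called higher, 1.25% lower and 2.7% in either direction. The levels are averages over the scraped tissue, in which more or fewer cells of a type and more or less RNA per cell cannot be told apart.

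The counts of calls rested on single pools, for the members as for all genes. Without labelled pool 2, edgeR called 0 of the 9 members and 0 of 17001 genes. Without control pool 3 it called 0 of the 9 and 11 of 16942 genes, and in both of these fits 9 of 9 members were at an unadjusted p under 0.05, as were 1729 and 2203 of all genes. Leaving out labelled pool 1 gave 2 members of 32 genes called, labelled pool 3 gave 6 of 119, control pool 1 gave 5 of 335 and control pool 2 gave 5 of 431. DESeq2 on all 6 pools called 9 members among 1243 genes. Since the groups overlapped for none of the 9, leaving out a pool could not turn a direction, and that is no sign of stability.

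**Figure D2:**
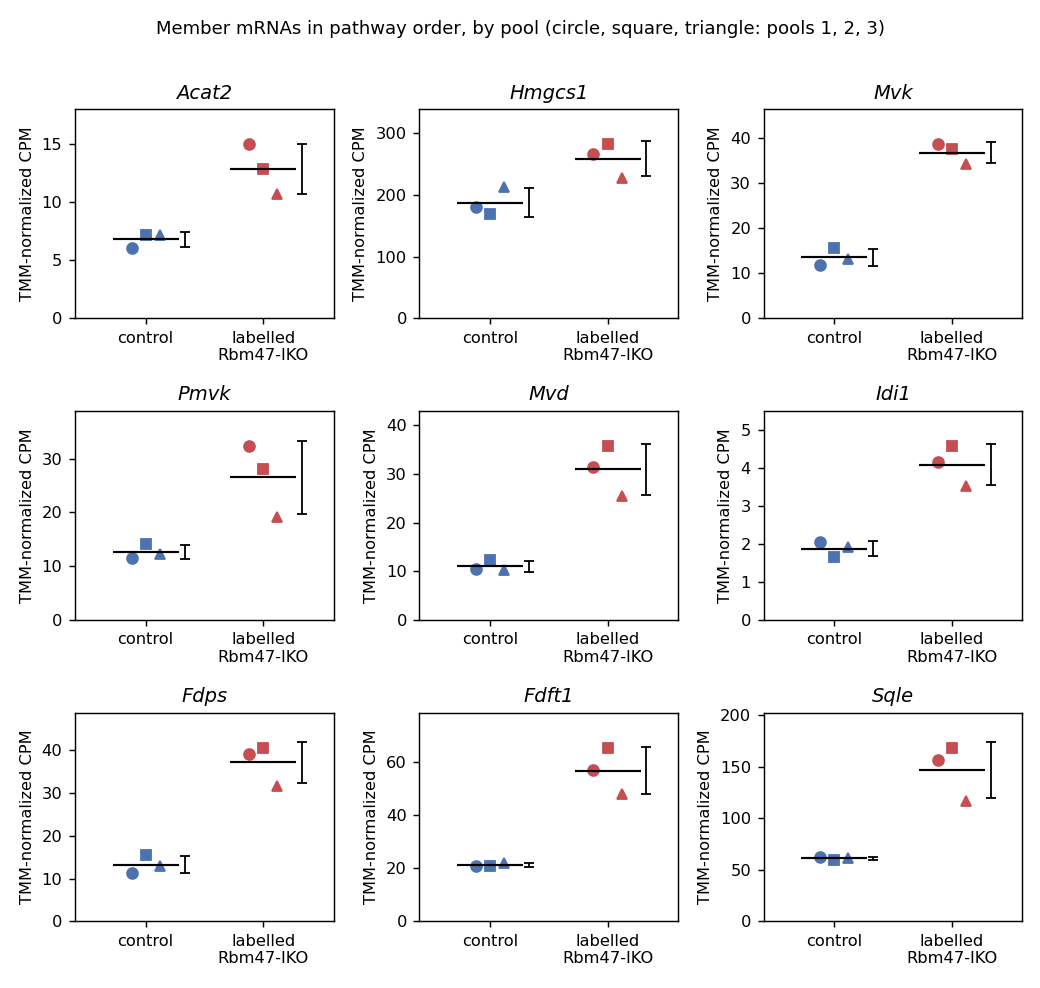
TMM-normalized CPM of the 9 members in each of the 3 control pools (blue) and the 3 pools labelled Rbm47-IKO (red); lines are group means, bars beside them are SDs over 3 pools, and each vertical axis starts at 0. In every panel the red symbols lie above the blue ones, and the triangle, labelled pool 3, is the lowest red symbol.

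Acat2 and Hmgcs1 act before mevalonate. Acat2, the cytosolic thiolase that joins acetyl-CoA units to acetoacetyl-CoA, was at 14.99, 12.9 and 10.7 CPM in labelled pools 1, 2 and 3, against 6.03, 7.17 and 7.16 CPM in control pools 1, 2 and 3. The lowest labelled pool was 1.496 times the highest control pool. The fitted fold was 1.89 (log2 fold change 0.92, SE 0.18).

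Hmgcs1, the cytosolic HMG-CoA synthase, which alone among the 6 members with a promoter window held the SRE core, was the most abundant of the 9. It was at 266, 283 and 228 CPM in the labelled pools and 181, 168 and 214 CPM in the control pools. Labelled pool 3 and control pool 3 came closest, at a ratio of 1.06, the smallest gap between the groups for any member. The fitted fold of 1.38 (log2 fold change 0.46, SE 0.14) was also the smallest.

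The kinases Mvk and Pmvk and the decarboxylase Mvd turn mevalonate into isopentenyl diphosphate. Mvk, mevalonate kinase, was at 38.7, 37.5 and 34.2 CPM in the labelled pools and at 11.8, 15.5 and 13.2 CPM in the control pools. Its lowest labelled pool was 2.20 times its highest control pool, the widest gap of the 9, and its fitted fold was 2.72 (log2 fold change 1.45, SE 0.13). Mvk was also the steadiest member across the labelled pools, with a coefficient of variation of 6.30%.

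Pmvk, phosphomevalonate kinase, varied most between labelled pools. It was at 32.4, 28.1 and 19.1 CPM there, a coefficient of variation of 25.6%, and at 11.5, 14.1 and 12.2 CPM in the control pools. Labelled pool 1 was 1.70 times labelled pool 3, and the lowest labelled pool was 1.35 times the highest control pool. The fitted fold was 2.11 (log2 fold change 1.07, SE 0.20), and it ran from 0.90 to 1.26 on the log2 scale when 1 pool was left out.

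Mvd, mevalonate diphosphate decarboxylase, was at 31.5, 35.8 and 25.5 CPM in the labelled pools and at 10.5, 12.3 and 10.2 CPM in the control pools. The groups were far apart, with the lowest labelled pool at 2.08 times the highest control pool. Its fitted fold of 2.81 (log2 fold change 1.49, SE 0.16) was the largest of the members, though it differed from those of Fdps, Mvk and Fdft1 by less than its SE.

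Idi1, the isomerase that makes dimethylallyl diphosphate from isopentenyl diphosphate, was the least abundant member, on 63 to 174 reads per pool. It was at 4.16, 4.59 and 3.52 CPM in the labelled pools and at 2.06, 1.66 and 1.92 CPM in the control pools. The groups did not overlap, and the fitted fold was 2.18 (log2 fold change 1.12). Its SE of 0.23 was the largest among the members.

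The enzymes that build the longer chains followed. Fdps, which condenses the isoprenes to farnesyl diphosphate, was at 39.1, 40.5 and 31.5 CPM in the labelled pools and at 11.4, 15.5 and 12.9 CPM in the control pools. Every labelled pool was at least 2.04 times the highest control pool, and the fitted fold was 2.79 (log2 fold change 1.48, SE 0.16).

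Fdft1, squalene synthase, which commits farnesyl diphosphate to sterols, was at 57.0, 65.4 and 47.8 CPM in the labelled pools and at 20.9, 20.7 and 22.0 CPM in the control pools. The coefficient of variation was 3.36% over the control pools and 15.5% over the labelled pools. The fitted fold was 2.68 (log2 fold change 1.42, SE 0.13). Fdft1 shares 767 of its 2860 exon bases with Ctsb on the opposite strand, and whether counting used the strand was not given in the sources used here. Ctsb was on 13135 to 19297 reads per pool and its log2 fold change was 0.11 (SE 0.13). No other member shared exon bases with another gene.

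Sqle, squalene epoxidase, a rate-controlling step of sterol synthesis, was at 156, 168 and 116 CPM in the labelled pools and at 62.2, 59.3 and 61.4 CPM in the control pools. Its control pools were the tightest of any member, with a coefficient of variation of 2.497%, against 18.5% over the labelled pools. The fitted fold was 2.41 (log2 fold change 1.27, SE 0.15), and the lowest labelled pool was 1.87 times the highest control pool.

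Per kb of exon, the order of the levels was similar in both groups, and most of the middle ranks were close. In the control pools Hmgcs1 led at 58.0 ± 7.26 CPM per kb (SD, n = 3). Sqle at 10.99 ± 0.27, Fdps at 10.7 ± 1.66 and Pmvk at 10.5 ± 1.15 CPM per kb followed, with neighbours that overlapped. Fdft1 at 7.41, Mvd at 6.24, Mvk at 5.05, Acat2 at 2.67 and Idi1 at 0.54 CPM per kb came next, without overlap between neighbours in this order. In the labelled pools Hmgcs1 was at 80.1 ± 8.73 and Idi1 at 1.17 ± 0.15 CPM per kb (SD, n = 3), again the highest and the lowest. In the order Fdps, Sqle, Pmvk, Fdft1 and Mvd, from 29.9 to 17.6 CPM per kb, neighbours overlapped there.

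**Figure D3:**
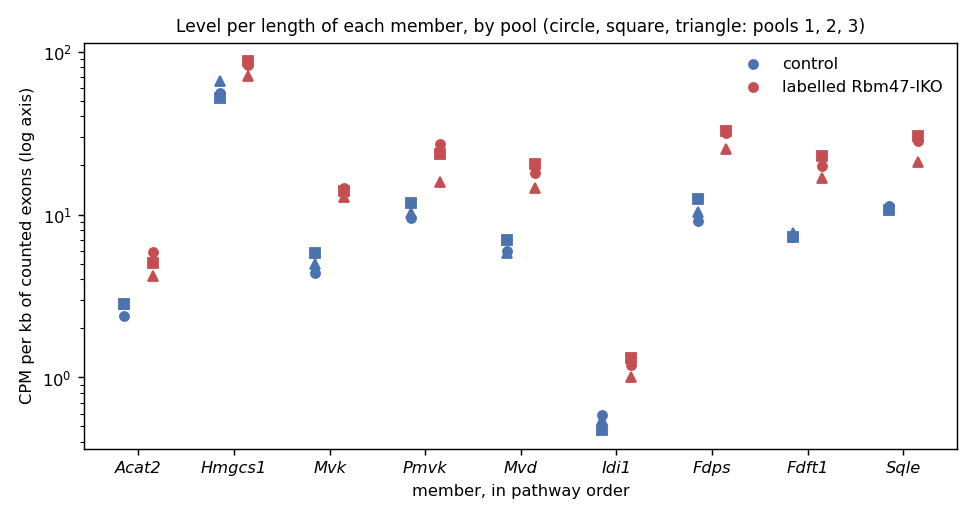
Level of each member per kb of counted exons, on a log axis, in control pools (blue) and pools labelled Rbm47-IKO (red), with 1 symbol per pool. Hmgcs1 is the highest and Idi1 the lowest in both groups, and the blue and red symbols of Hmgcs1 lie closest together.

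Across the labelled pools the members had a like order, and across the control pools they did not. Summed over the 9, they were at 640, 676 and 516 CPM in labelled pools 1, 2 and 3 and at 317, 314 and 355 CPM in control pools 1, 2 and 3. Labelled pool 3 was the lowest labelled pool for all 9, and labelled pool 2 was the highest for 6 and labelled pool 1 for 3. Of the control pools, the highest was pool 2 for 5 members, pool 1 for 2 and pool 3 for 2, and the lowest was pool 1 for 4, pool 2 for 4 and pool 3 for 1. Hmgcs1 made up most of the sum in the control pools. Over the 6 pools, Pearson's r of log2 CPM between members ran from 0.85 to 0.996 in 36 pairs, with a median of 0.96. After each genotype's mean was removed it ran from -0.30 to 0.95, with a median of 0.67 and 34 of 36 pairs above 0. These r are a description over 6 points that share their libraries, and the first set includes the difference between the groups on which the members were selected. Each member's r with the mean of the other 8 was lowest for Hmgcs1, at 0.90, and highest for Fdft1, at 0.993.

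Markers of other cell types were measured beside the members. Summed smooth muscle markers were at 3302 CPM in labelled pool 3 and at 2803 CPM in control pool 2, against 90.7 to 586 CPM in the other 4 pools. Labelled pool 3 was the lowest labelled pool for all 9 members, while control pool 2 was the highest control pool for 5 of them. With the smooth muscle level as a covariate, edgeR called 8 of 9 members among 716 genes in all, against 443 without it, and their median log2 fold change was 1.32. Without labelled pool 3 that median was 1.41. Of the 12 marker lists, with 74 genes tested, edgeR called 0 genes, with 13 at an unadjusted p under 0.05, beside 2756 of all 16425 genes, and 8 called by DESeq2. All markers were detected in some pool, and only Lep was at 0 in any pool.

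The sums of 3 marker lists did not overlap between the groups. The 8 enterocyte markers, which show that absorptive epithelium was sampled, summed to 41905 to 45952 CPM in the labelled pools and to 53625 to 59768 CPM in the control pools. Of the 8, 3 were lower without overlap and 1 higher, beside 11.6% and 11.7% of all genes tested. The lipoprotein genes Apob, at means of 10378 against 18912 CPM, and Apoa4, at 3361 against 6762 CPM, differed most. Sis was also lower without overlap and Fabp2 higher, and Vil1, Fabp1, Apoa1 and Alpi overlapped. The goblet cell markers, 6 genes, summed to 19972 to 22772 CPM against 15028 to 17481 CPM, with 2 of the 6 higher without overlap. Fcgbp made up most of each of these sums. The 5 markers of the distal small intestine summed to 494 to 662 CPM against 329 to 481 CPM, with 2 of 5 higher without overlap. Slc51a made up most of that sum, at 444, 480 and 371 CPM in labelled pools 1, 2 and 3. Slc10a2 went the other way, with a log2 fold change of -0.47 (SE 0.84) and overlapping pools. The part of these differences in the levels of the members was not tested. Sums of the other 9 lists overlapped, among them Paneth cell markers at 371 to 662 CPM against 405 to 1540 CPM and proliferation markers at 181 to 297 CPM against 203 to 337 CPM.

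The rest of the mevalonate and isoprenoid pathway had a median near 0. Of its 13 genes tested of 14, edgeR called 1 lower and 0 higher, with a median log2 fold change of -0.09. Acat1, the mitochondrial thiolase that runs the same reaction as Acat2 in ketone body metabolism, was at 64.8, 61.1 and 53.8 CPM in the labelled pools and at 79.7, 101 and 108 CPM in the control pools, with a log2 fold change of -0.69 (SE 0.14, edgeR adjusted p = 0.0518). At the branch that leaves farnesyl diphosphate for other products, Ggps1, geranylgeranyl diphosphate synthase, had overlapping pools and a log2 fold change of -0.11 (SE 0.15, edgeR adjusted p = 0.803). The gene called lower was Zmpste24, a protease that trims farnesylated proteins, at 22.4, 22.3 and 20.9 CPM against 37.0, 38.4 and 42.4 CPM, with a log2 fold change of -0.84 (SE 0.10, edgeR adjusted p = 0.0112). This call was lost without labelled pool 1, 2 or 3 and without control pool 3. With library size only or upper quartile scaling, 2 genes of this list were called, and with DESeq2 3.

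Below squalene epoxide, 7 of the 10 listed enzymes from lanosterol synthase to cholesterol were called higher and 0 lower, beside 1.45% and 1.25% of all genes tested. Their median log2 fold change was 0.81. Lss, the cyclase that takes the product of Sqle, was at 50.3, 48.4 and 42.0 CPM in the labelled pools and at 28.1, 25.8 and 28.3 CPM in the controls, with a log2 fold change of 0.77 (SE 0.11, edgeR adjusted p = 0.0168). Cyp51, the demethylase of lanosterol, had a log2 fold change of 0.84 (SE 0.15, edgeR adjusted p = 0.0318). Tm7sf2, Msmo1, Nsdhl, Hsd17b7 and Dhcr7 were also called, with log2 fold changes from 0.76 to 1.05. Tm7sf2 shares 532 of 3484 exon bases with Vps51 on the same strand.

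Lbr, which can stand in for Tm7sf2, had a log2 fold change of 0.20 (SE 0.15), Ebp one of 0.32 (SE 0.14) and Sc5d one of -0.48 (SE 0.16), and none of them passed the threshold. Sc5d pools did not overlap and were lower, at 116 to 121 CPM against 132 to 206 CPM. The number of calls in the 10 was 0 without labelled pool 1, labelled pool 2 or control pool 3, with 8 at an unadjusted p under 0.05 in each of these fits, and 4 without labelled pool 3 or control pool 1.

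**Figure D4:**
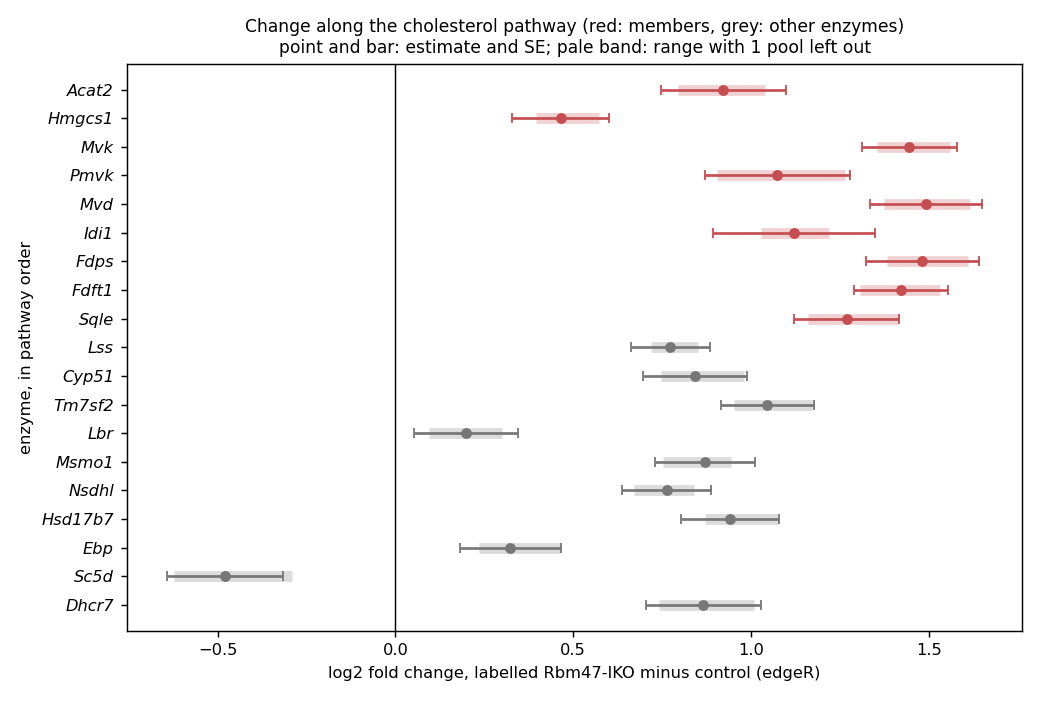
Fitted log2 fold change (libraries labelled Rbm47-IKO minus control, edgeR) of cholesterol synthesis enzymes in pathway order, with the members in red and other enzymes in grey; bars are SEs and pale bands the range over fits with 1 pool left out. The members from Mvk to Sqle lie between 1.07 and 1.49, Hmgcs1 lies at 0.46, and Sc5d alone lies below 0.

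Genes that control the pathway were mixed. Of 8 SREBP2 control genes, edgeR called 2 higher and 1 lower, beside 1.45% and 1.25% of all genes tested. Their median log2 fold change was 0.31. Srebf2, which encodes SREBP2, was at 261, 263 and 241 CPM in the labelled pools and at 109, 110 and 109 CPM in the controls, with a log2 fold change of 1.22 (SE 0.10, edgeR adjusted p = 0.00596).

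Insig1, which retains the SREBP escort protein in the endoplasmic reticulum, was called higher at 1.03 (SE 0.20, edgeR adjusted p = 0.0434). Mbtps2, a protease that releases SREBP, was called lower at -0.89 (SE 0.17, edgeR adjusted p = 0.0393), on 163 to 360 reads per pool, and shares 3890 of its 10105 exon bases with Yy2 on the same strand. The escort Scap at 0.24 (SE 0.11), the other retention protein Insig2 at -0.46 (SE 0.10) and the protease Mbtps1 at -0.05 (SE 0.09) did not pass the threshold. Without labelled pool 2, 0 of the 8 were called, with 4 at an unadjusted p under 0.05, and 1 was called without labelled pool 1, labelled pool 3, control pool 1 or control pool 3. With the GC offset edgeR called 1 of the 8 higher and 0 lower, so the Mbtps2 call was lost.

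Neighbouring lipid pathways were also counted. Among 9 SREBP1 and fatty acid synthesis genes, edgeR called 1 higher, the acetyl-CoA carboxylase Acaca, with a log2 fold change of 0.74 (SE 0.15, edgeR adjusted p = 0.0451), and the median was 0.46. The log2 fold changes ran from -0.22 to 1.30 for Scd2 (SE 0.36, edgeR adjusted p = 0.114), a stearoyl-CoA desaturase named after its values were seen. Of the 9, 6 were higher without overlap, beside 11.7% of all genes tested. At an unadjusted p under 0.05 were 6, beside 2756 of all 16425 genes. Srebf1 was at -0.11 (SE 0.09), and Fasn, fatty acid synthase, at 1.07 (SE 0.25), and neither passed the threshold. The Acaca call was lost without any one of labelled pools 1, 2 and 3, control pool 1 and control pool 3, and with upper quartile scaling. DESeq2 called 6 of the 9.

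Among 9 genes of sterol uptake, esterification and efflux, edgeR called 0, with 5 at an unadjusted p under 0.05, DESeq2 called 1, and the median log2 fold change was -0.17. The efflux half-transporters Abcg5 and Abcg8 were at -0.31 (SE 0.10) and -0.39 (SE 0.11), the esterifying enzyme Soat2 at -0.36 (SE 0.13) and the uptake transporter Npc1l1 at 0.30 (SE 0.12). None of these passed the threshold.

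Enzymes that share substrates with the first steps were also read. Aacs, which makes acetoacetyl-CoA in the cytosol from acetoacetate and so feeds Hmgcs1, was at 79.4, 83.7 and 63.6 CPM in the labelled pools and at 28.9, 33.6 and 28.9 CPM in the control pools. It was called higher, with a log2 fold change of 1.31 (SE 0.14, edgeR adjusted p = 0.00875), a call that was lost without labelled pool 1, labelled pool 2 or control pool 3. Acat3, a close copy of Acat2 on 2 to 14 reads per pool, was not tested.

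The genes most like the members were ranked by Pearson's r between their log2 CPM and the mean log2 CPM of the members over 6 pools, among 9760 other genes with a mean of at least 5 CPM. This r includes the difference between the groups on which the members were selected, so a gene that separates the groups can rank high. The 10 with the highest r, from 0.999 to 0.992, were Babam2, Erg28, Scpep1, Aacs, ENSMUSG00000037513, Epb41l1, B4galnt1, Sdc1, Oaf and Areg. Babam2 had a log2 fold change of only 0.24. Erg28 encodes a scaffold of sterol synthesis enzymes, Sdc1 is the heparan sulfate proteoglycan syndecan-1, and Areg is an EGF receptor ligand. Of the pathway genes, Nsdhl ranked 18, Srebf2 ranked 24, Lss ranked 31 and Cyp51 ranked 49, while Msmo1 ranked 402 and Dhcr7 ranked 731. The order was loose, since only 2 to 5 of the 10 stayed among the first 10 when a pool was left out.

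After the genotype means were removed, the 10 genes with the highest r were Ppp2cb, Misp, Efhd2, Srxn1, Ddx54, Fkbp8, Marveld3, Ube2e1, Car8 and Psma1, from 0.998 to 0.987. Srebf2 ranked 46 there, at 0.97, and Lss ranked 1352, at 0.72. Cyp51 ranked 195, Nsdhl 497, Msmo1 5542 and Dhcr7 6939. Over the 6 pools the r of Abcg5 was -0.93. All r are descriptions of 6 pools that share library and depth.

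**Figure D5:**
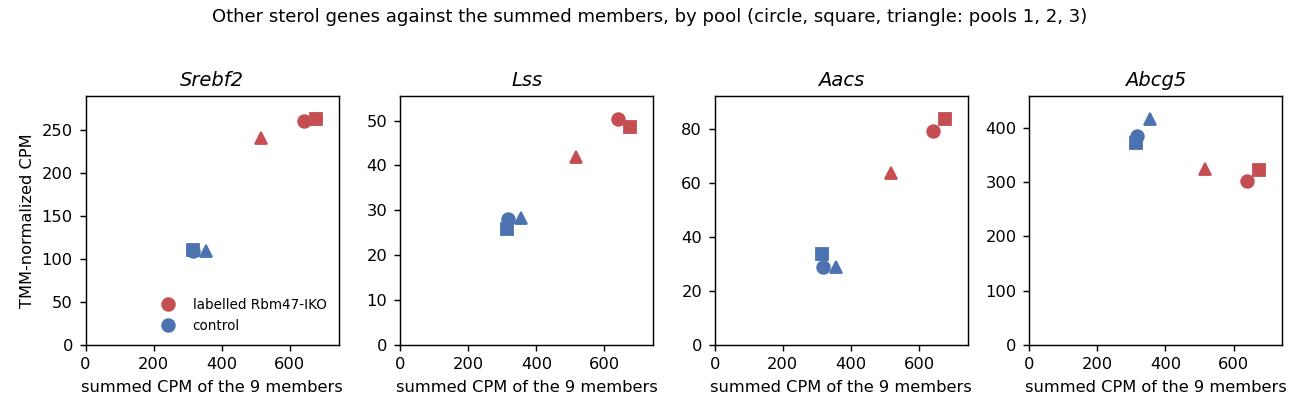
TMM-normalized CPM of Srebf2, Lss, Aacs and Abcg5 against the summed CPM of the 9 members in each of the 6 pools, with control pools in blue and pools labelled Rbm47-IKO in red. Srebf2, Lss and Aacs are higher in the labelled pools, which have member sums of 516 to 676 CPM, and Abcg5 is lower in them.

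The 3′ untranslated regions of the members varied in length and in the AU-rich motifs that many RNA-binding proteins recognise. For each gene the longest stretch of exon after an annotated stop codon was taken (GENCODE M21), from transcripts of any type. By this rule 3 of the 9 members held at least 1 AUUUA, beside 69.7% of 14131 tested genes. These were Idi1 with 6 copies in 1816 bases, Hmgcs1 with 4 in 1782 bases and Fdft1 with 3 in 1600 bases. At 3.30, 2.25 and 1.88 copies per kb these 3 were above the median of all tested genes, 1.18 per kb. The median over all 9 members was 0 per kb, below that of all tested genes. Runs of 6 or more U were found in 4 of the 9 members, beside 56.3% of the tested genes. They were at 3.37 per kb in Hmgcs1, 2.06 in Acat2, 0.625 in Fdft1 and 0.55 in Idi1. The median was 0 per kb over the 9 members and 0.49 per kb over all tested genes. The members with neither motif were Mvk, Pmvk, Mvd, Fdps and Sqle, and all of these but Mvd, with 1566 bases, had regions of 55 to 400 bases. All counted exons of Mvd held 1761 bases, so its region may take in bases that other transcripts translate. The same may hold for other genes, since the rule was the same. By this rule the median length was 972 bases for the members and 1321 bases for all. Motif letters say nothing of binding, and no list was tested for enrichment.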

How the data were processed

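Scraped small intestinal mucosa of 6 pools was sequenced as polyadenylated RNA. Per the submitters' processing notes the authors used STAR 2.5.1a, Subread featureCounts 1.4.6-p5 and GRCm38; the strand setting was not given in the sources used here. The authors deposited, per gene and pool, the read count, CPM and RPKM. The deposited count was tested. The deposited CPM (counts scaled to the total of the pool) and RPKM (the same per kb of exon) were recomputed from it to within rounding for all 38561 genes and were not used further.

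Genes were tested with edgeR 4.0.16 (quasi-likelihood, TMM scaling, filterByExpr, Benjamini-Hochberg over 16425 genes, threshold 0.05) on all 6 pools with genotype alone. CPM printed here uses TMM-scaled library sizes. On data simulated for this comparison over 16153 genes, the fit recovered 32.8% of genes changed by 1 and 69.7% of those changed by 2 on the log2 scale, with 8.67 false calls per draw. DESeq2 1.42.0, limma 3.58.1 with voom, other scalings and filters, a replicate block, a GC offset, a smooth muscle covariate and leaving out each pool were alternatives. IDs were named from GENCODE M21, which holds 36639 of them.

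The members and all gene lists were chosen with earlier results of these data known. Some genes of these lists are not reported here, and the list counts leave them out. Named genes were the members, list genes that passed the threshold or act next to the members, Rbm47, and the 10 genes most alike by each r. Other features singled out, such as Ctsb, were chosen after their values were seen.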

Additional observations from a re-analysis of the deposited data

How the results depend on the processing

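The pools of the groups overlapped for none of the 9 members, so the direction of a member could not turn when a pool was left out. Genes called numbered 443 in the main analysis, 1243 with DESeq2, 100 with the replicate block, 266 with the GC offset and 716 with the smooth muscle covariate, and 0 to 431 with 1 pool left out (0 without labelled pool 2, 11 without control pool 3, 32 without labelled pool 1, 119 without labelled pool 3). Upper quartile scaling put the share of higher calls at 46.9%, against 53.7%, and the replicate block at 63.0%. Members called numbered 5 with the replicate block, 6 with the GC offset and 0 to 6 with 1 pool left out. They numbered 7 with RLE scaling, upper quartile scaling or no filter, where Idi1 was lost, and 7 with limma-voom, where Pmvk was lost.

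In the 6 pathway lists together, 13 genes were called, 23 with DESeq2, 3 with the replicate block and 0 to 13 with 1 pool left out. The isoprenoid list gave 3 calls with DESeq2, 2 with upper quartile, library size only, the 1 CPM filter, no filter or the smooth muscle covariate, 0 with the replicate block and 0 to 2 with 1 pool left out. Lanosterol to cholesterol enzymes gave 1 with the replicate block and 0 to 6 with 1 pool left out. SREBP2 genes gave 1 with the replicate block or the GC offset and 0 to 2 with 1 pool left out. SREBP1 genes gave 6 with DESeq2, 4 with the smooth muscle covariate, 2 with no filter, 0 with upper quartile or the replicate block and 0 to 3 with 1 pool left out. Uptake and efflux genes gave 1 with DESeq2. Substrate-sharing enzymes gave 2 with DESeq2 or the smooth muscle covariate and 0 to 2 with 1 pool left out. Ggps1 reversed to 0.062 with the GC offset; the cause was not tested.

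Same-numbered pools of the genotypes deviated together for number 1 (r 0.41) but not for numbers 2 and 3 (-0.003 and -0.28), so the numbers were not taken to pair them. The comparison of the 10 most alike genes with 1 pool left out was chosen after seeing the data. Idi1, on 63 to 174 reads per pool, is the member that depth limits most.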
